A study of Mus musculus with 6 samples.

Results

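The glycolysis enzymes described here are 10 mouse genes that encode enzymes of the glycolytic chain and of lactate formation, namely Hk1, Hk2, Pfkp, Pfkl, Pfkm, Aldoa, Pgk1, Pkm, Ldha and Ldhb. Their members are the probe sets whose annotated gene is exactly a listed gene and no other, which gave 21 of the 22690 probe sets on the array and all 10 of the listed genes, out of 12394 genes that have such a probe set. Probe set 1436822_x_at, which the annotation pairs with Hk1 and with ribosomal protein genes, was left out by that rule. The arrays measured RNA of whole pituitary glands from mice of the C57BL/6J strain, all male and 8 to 12 weeks old, housed in 12 hours of light and 12 hours of darkness and killed at zeitgeber time 12, when the lights went off. Of the 6 arrays, 3 carried wild type RNA (replicates 1 to 3) and 3 RNA labelled Bmal1-/- (replicates 4 to 6), each array from a pool of 3 glands of 1 genotype. No treatment other than the genotype is named, the groups share strain, sex and light schedule, and how the Bmal1-/- allele was made is not given in the labels. The question of the comparison is which of these transcripts differ when BMAL1 is missing.

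Glycolysis splits glucose into pyruvate and yields ATP without oxygen. Hexokinase traps glucose in the cell, phosphofructokinase commits the sugar to breakdown, aldolase cuts it, phosphoglycerate kinase and pyruvate kinase make ATP, and lactate dehydrogenase turns pyruvate and lactate into each other. Several steps have isozymes, which are separate genes for the same reaction with different tissue distribution and control. BMAL1 is the circadian transcription factor that binds E-box DNA together with CLOCK or NPAS2, and clock control of sugar metabolism is well known in liver and muscle.

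Fold changes below are on the scale of log2(intensity + 16), and adjusted p-values are corrected over all tested probe sets. Values are MAS5 intensities on a linear scale, the Affymetrix summary of the probes of a probe set, with each array scaled to the same average. Array precision is limited by the number of arrays, n = 3 per genotype throughout. Over the 13576 tested probe sets, arrays of the same genotype correlated at a Pearson's r of 0.98 to 0.986, and arrays of different genotype at 0.97 to 0.976. Arntl, the gene that encodes BMAL1, read 39.6, 51.7 and 38.6 in wild type against 112.1, 102 and 127.5 on the arrays labelled Bmal1-/-. All 3 of the latter were higher. The part of the gene that this probe set reads is not given relative to the deletion. Whether the reading goes against the label therefore cannot be told, and every direction below is that of the arrays labelled Bmal1-/-. The hormone genes that mark the anterior pituitary were bright on all arrays, with 7 of 8 listed markers on the array and a summed intensity of 61039 to 69435 in wild type and 55221 to 58054 on the others, with no overlap. Of these 7, 6 were below 0 and 2 fell, the growth hormone gene Gh by 0.27 and Cga, the shared hormone alpha subunit, by 0.31 on the log2 scale (adjusted p = 0.0217 and 0.019 in limma).

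Of the 21 probe sets, all of which passed the filter on low values, 5 rose on the arrays labelled Bmal1-/- and 0 fell at an adjusted p under 0.05 in limma. They belonged to Pfkp, Ldhb, Ldha, Aldoa and Hk1, so 5 of the 10 genes had a probe set that rose. That count of genes has no matching share over all genes here. The members were chosen with earlier results of these data known, so the counts in this paragraph are no test of the group. Over all tested probe sets 5.54% changed, 2.75% upward and 2.78% downward. Among the members 14 had log2 fold changes above 0 and 7 below, with a median of 0.03 against -0.01 over all tested probe sets. At 8 of the 21 the arrays of the genotypes stood apart (7 higher and 1 lower), against 25.9% of all tested probe sets. Counting only the brightest probe set of each gene, 3 of 10 genes rose (Pfkp, Ldha and Hk1) and 0 fell, where 5.66% of all genes changed, 3% upward and 2.66% downward. The count of 5 became 3 when wild type replicate 3 or Bmal1-/- replicate 4 was left out. In those fits the calls over all tested probe sets went from 752 to 314 and 425. In a whole gland, fewer cells of a type and less RNA per cell cannot be told apart.

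**Figure D1:**
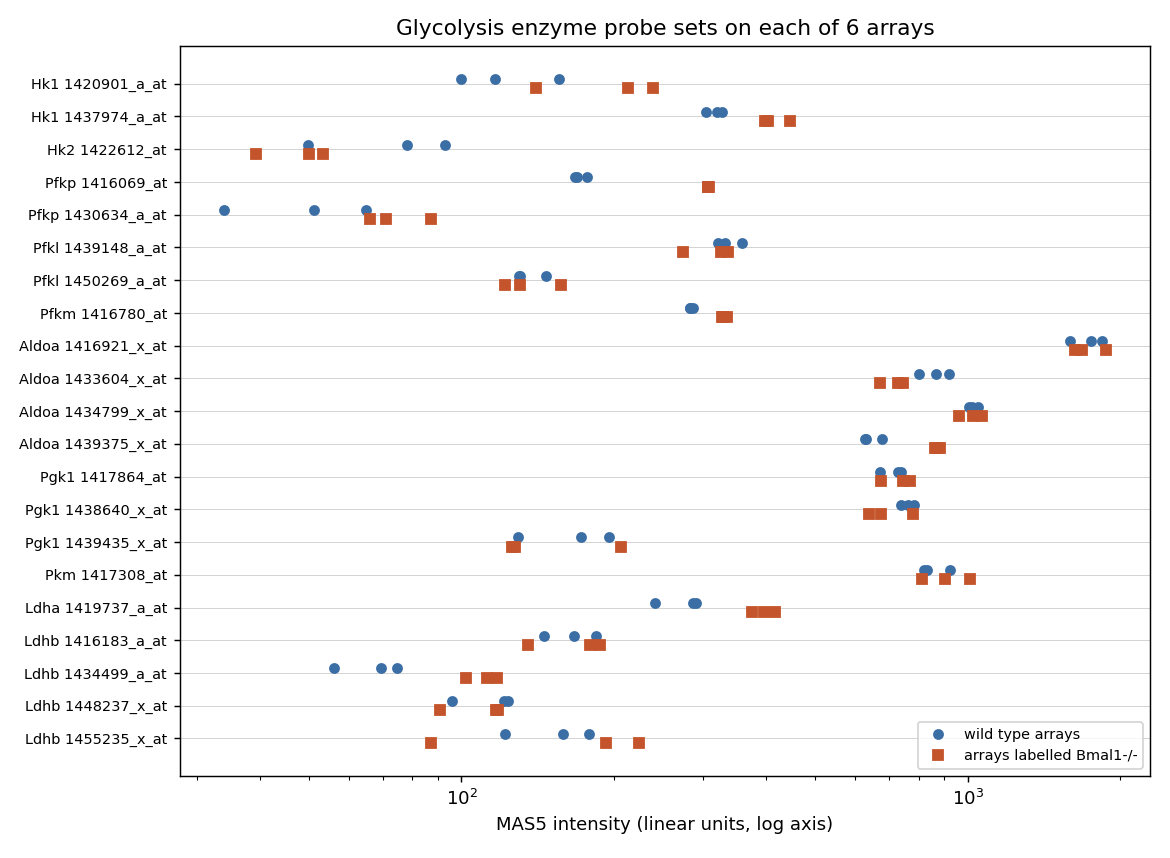
MAS5 intensity (log axis) of the 21 glycolysis enzyme probe sets, 1 row each, with circles for the 3 wild type arrays and squares for the 3 arrays labelled Bmal1-/-. The squares lie to the right of all circles without overlap in 7 rows and to the left in 1 row, Aldoa 1433604_x_at.

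**Figure D2:**
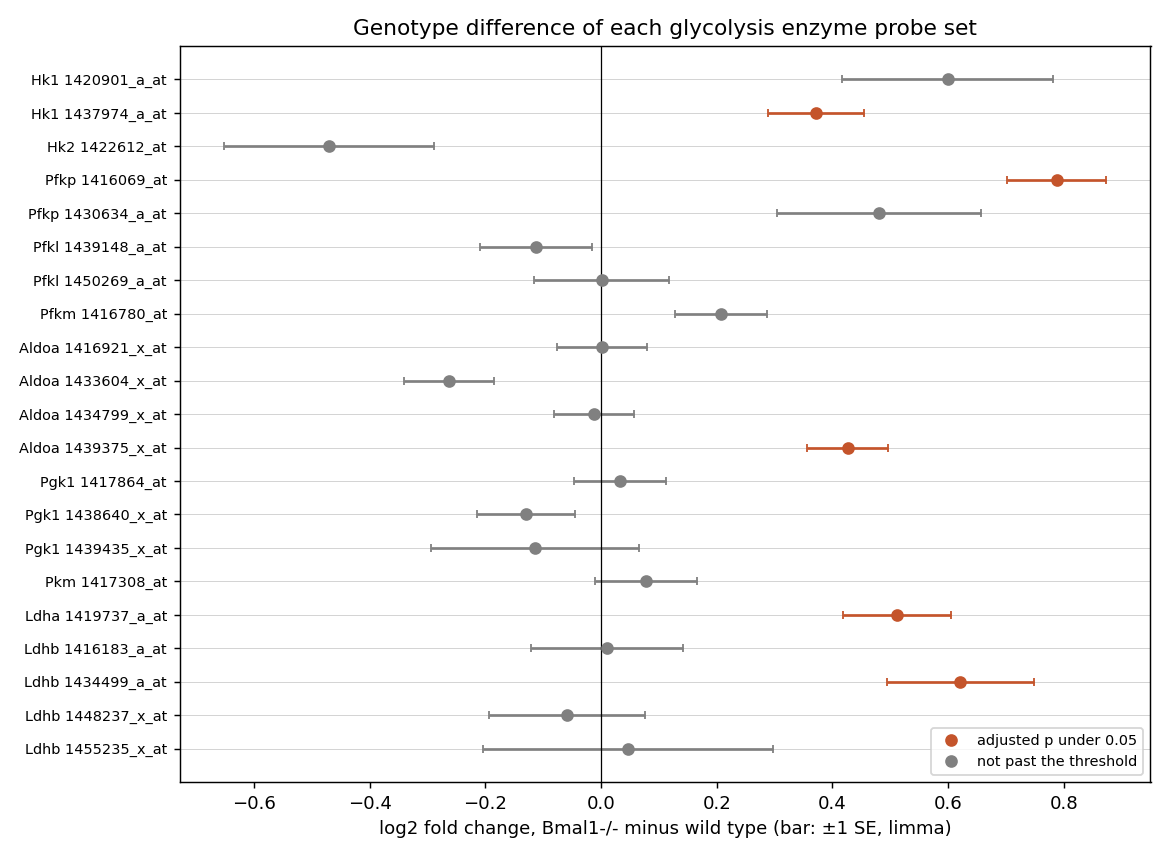
Log2 fold change of each probe set, Bmal1-/- minus wild type, with bars of 1 SE from limma. The 5 coloured points passed an adjusted p of 0.05, and the largest is Pfkp 1416069_at at 0.79.

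The sequences printed below are RefSeq promoter windows of GRCm38.p6, each from 250 bases before to 50 after an annotated transcription start, shown because BMAL1, named in the genotype label, binds E-boxes. All 10 genes matched, with 18 windows in all. Both strands were searched for CACGTG, the canonical E-box, which reads the same on either strand, and for its variant CACGTT. Both are printed in capitals. ACGTG, a core of hypoxia response elements that every CACGTG also contains, was counted as well. Of 32851 promoter windows of this length, 7.15% hold CACGTG, 4.68% CACGTT and 19.6% ACGTG. Among the 18 windows of the glycolysis genes, 2 held CACGTG (Ldha and Pfkm), 3 CACGTT (Hk1 and 2 windows of Pfkm) and 9 ACGTG, from 7 genes. Windows of 1 gene can overlap, as windows 2 and 3 of Aldoa and of Pfkm do. A match describes the letters and says nothing about binding.

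**Figure D3:**
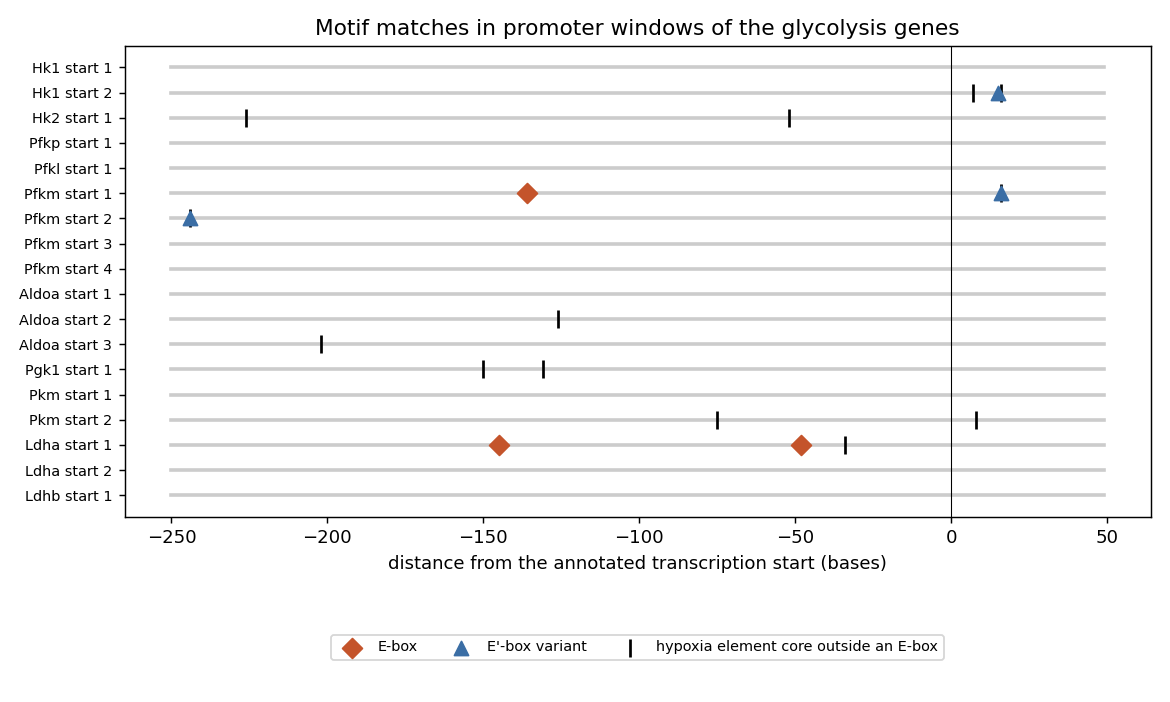
Position of each motif match in bases from the annotated start (0) for the 18 promoter windows, 1 row each. Diamonds are E-boxes, triangles the variant and bars the hypoxia element core outside an E-box. Only the first Ldha window carries 2 diamonds, and the Pfkp, Pfkl and Ldhb rows are empty.

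Hexokinase opens the pathway, and Hk1, the isozyme found in most tissues, rose. Its brighter probe set 1437974_a_at read 327.5, 319.9 and 304.8 in wild type against 445.1, 398.5 and 403.2 on the arrays labelled Bmal1-/-. Every array labelled Bmal1-/- stood above every wild type array, and the means were 317 ± 11.6 and 416 ± 25.7 (SD, n = 3). The log2 fold change was 0.37 (SE 0.08, adjusted p = 0.0246 in limma). The call was lost without wild type replicate 3 (adjusted p = 0.0885) or Bmal1-/- replicate 4 (0.0955), 5 (0.0639) or 6 (0.0564), and when eBayes was run with no trend (0.0822).

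The second Hk1 probe set, 1420901_a_at, read 99.8, 156.1 and 116.4 in wild type against 213.2, 140.6 and 239.4 on the other arrays. The genotypes overlapped through wild type replicate 2 and Bmal1-/- replicate 5. Its log2 fold change was 0.60 (SE 0.18, adjusted p = 0.0773 in limma), and it passed without wild type replicate 2 (adjusted p = 0.0304) or Bmal1-/- replicate 5 (0.0245). The second of the 2 annotated Hk1 starts, chr10:62340372-62340671 on the minus strand, carries a CACGTT match 16 to 21 bases after the start. The match lies on the strand opposite to the printed one, and the first start carries neither motif.
Hk1 start 2: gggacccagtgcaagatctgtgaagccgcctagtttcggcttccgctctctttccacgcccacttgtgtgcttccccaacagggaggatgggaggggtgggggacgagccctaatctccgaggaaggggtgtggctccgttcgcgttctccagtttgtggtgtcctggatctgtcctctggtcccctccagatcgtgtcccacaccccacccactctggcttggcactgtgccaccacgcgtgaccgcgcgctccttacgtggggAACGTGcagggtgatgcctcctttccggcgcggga

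Hk2, the insulin-responsive isozyme of muscle and fat, had a value below 0. Its only probe set 1422612_at read 49.7, 92.7 and 77.9 in wild type against 53.2, 39.3 and 49.9 on the arrays labelled Bmal1-/-. Wild type replicate 1 lay among the arrays labelled Bmal1-/-, and the other two wild type arrays stood above all of them. The log2 fold change was -0.47 (SE 0.18, adjusted p = 0.158 in limma), and it passed only in the fit without wild type replicate 1 (adjusted p = 0.044). The log2 difference between Hk1 and Hk2 was larger by 0.84 (SE 0.24) on the arrays labelled Bmal1-/-, and the genotypes did not overlap. The exact two-sided permutation p was 0.1, the smallest that 3 arrays against 3 allow. The offset between probe sets of different genes has no meaning of its own, so only its change between genotypes is read here and below.

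Phosphofructokinase sets the pace of glycolysis, and Pfkp, the platelet-type isozyme also abundant in brain, gave the largest rise of the 21 probe sets. Probe set 1416069_at read 167.7, 168.9 and 177.3 in wild type against 306.7, 308.2 and 306.7 on the arrays labelled Bmal1-/-. The genotypes were far apart next to their spread, with means of 171 ± 5.23 and 307 ± 0.866 (SD, n = 3). The log2 fold change was 0.79 (SE 0.09), a 1.73-fold rise, with a limma adjusted p of 0.000267, rank 43 by p-value among 13576. It stayed past the threshold in all 14 alternative fits, with adjusted p between 0.000135 and 0.00405.

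The dimmer Pfkp probe set 1430634_a_at read 33.9, 51.2 and 64.9 in wild type against 66.1, 71.1 and 87.1 on the other arrays. The groups did not overlap, though wild type replicate 3 and Bmal1-/- replicate 4 were close, and the log2 change of 0.48 (SE 0.18) did not pass (limma adjusted p = 0.138). The value was 0.29 without wild type replicate 1. The 1 annotated Pfkp start, chr13:6648722-6649021 on the minus strand, holds none of the 3 motifs in its window.
Pfkp start 1: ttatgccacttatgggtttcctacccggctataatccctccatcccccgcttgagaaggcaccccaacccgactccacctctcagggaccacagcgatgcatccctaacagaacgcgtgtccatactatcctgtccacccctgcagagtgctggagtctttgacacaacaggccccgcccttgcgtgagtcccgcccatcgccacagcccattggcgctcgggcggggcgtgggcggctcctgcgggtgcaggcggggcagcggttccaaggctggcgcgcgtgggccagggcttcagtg

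Pfkm, the muscle-type isozyme, had a small value above 0 and a narrow spread. Probe set 1416780_at read 282.3, 286.3 and 282.9 in wild type against 326.8, 329.1 and 334.6 on the arrays labelled Bmal1-/-. All 3 of the latter were higher, and the log2 change of 0.21 (SE 0.08) did not pass (limma adjusted p = 0.156). None of 10 skeletal muscle markers passed the filter on low values, and their summed intensity was 31 to 48.7 in wild type and 30.2 to 64 on the other arrays. Of the 4 annotated Pfkm starts, the first, chr15:98092339-98092638 on the plus strand, holds a CACGTG 136 to 131 bases before the start and a CACGTT 17 to 22 bases after it.
Pfkm start 1: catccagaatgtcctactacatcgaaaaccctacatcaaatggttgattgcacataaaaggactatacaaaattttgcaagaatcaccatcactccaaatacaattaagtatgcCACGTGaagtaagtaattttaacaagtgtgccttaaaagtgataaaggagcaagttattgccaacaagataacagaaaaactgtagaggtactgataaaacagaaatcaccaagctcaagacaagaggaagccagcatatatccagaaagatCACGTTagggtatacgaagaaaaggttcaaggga

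Pfkl, the liver-type isozyme, showed no call with either probe set. Probe set 1439148_a_at read 332.1, 358.8 and 321.6 in wild type against 336, 274.3 and 325.3 on the arrays labelled Bmal1-/-, giving a log2 change of -0.11 (SE 0.10). Probe set 1450269_a_at read 130.7, 130.1 and 147.1 against 121.9, 130.6 and 157.2, a log2 change of 0.0008 (SE 0.12). Both overlapped between genotypes, with limma adjusted p of 0.554 and 0.998. For 1439148_a_at the value was -0.07 without wild type replicate 2 and -0.03 without Bmal1-/- replicate 5.

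The 3 phosphofructokinase genes were set against each other by the per-array log2 difference between their brightest probe sets. On the arrays labelled Bmal1-/- Pfkp stood higher relative to Pfkl by 0.90 (SE 0.11) and relative to Pfkm by 0.58 (SE 0.03). Pfkl was lower relative to Pfkm by a log2 difference of -0.32 (SE 0.09). None of the 3 comparisons overlapped between genotypes, and each had the smallest possible exact permutation p of 0.1. The difference between Pfkl and Pfkm is fixed by the others, so the 3 comparisons are not independent. In all, 5 isozyme pairs were compared, and the p adjusted over the 5 pairs was 0.1 for each. With the dimmer Pfkp probe set the values were smaller, at 0.59 against the brighter Pfkl probe set, 0.48 against the dimmer one and 0.27 against Pfkm.

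**Figure D4:**
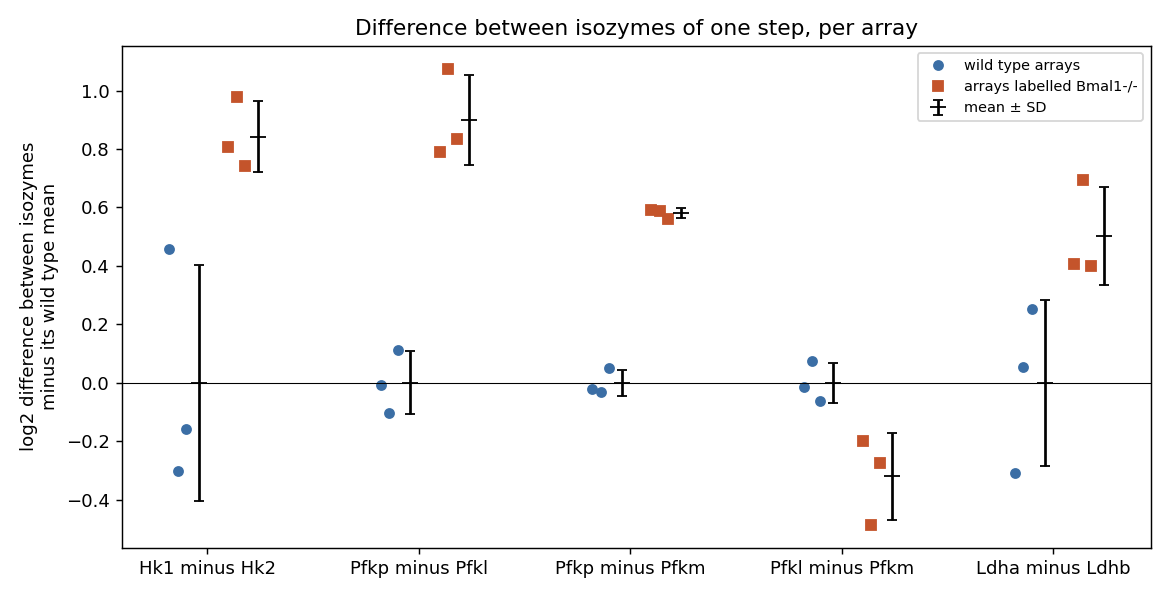
Per-array log2 difference between the brightest probe sets of 2 isozymes, after subtracting its wild type mean, for the 5 pairs, with the mean and SD of each group of 3 beside the points. The squares of the arrays labelled Bmal1-/- lie apart from the circles of wild type in all 5 pairs, lowest for Pfkl minus Pfkm with a mean of -0.32.

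Aldoa, the aldolase of muscle and most other tissues, was read by 4 probe sets with different values. Probe set 1439375_x_at read 630.3, 676.9 and 627.2 in wild type against 883.6, 868 and 862.9 on the arrays labelled Bmal1-/-. The 2 groups were well separated, and it rose by a log2 change of 0.43 (SE 0.07, adjusted p = 0.0047 in limma), past the threshold in all 14 alternative fits (highest adjusted p = 0.0483). Probe set 1433604_x_at read 864.5, 802.6 and 919.3 in wild type against 745.7, 672.6 and 728.8 on the others. Here the arrays labelled Bmal1-/- were all lower, with a log2 change of -0.26 (SE 0.08, adjusted p = 0.0712 in limma), which passed without wild type replicate 2 (adjusted p = 0.0416).

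The other Aldoa probe sets, 1416921_x_at and 1434799_x_at, overlapped between genotypes, with means of 1728 ± 128 and 1026 ± 20.7 in wild type and 1730 ± 132 and 1018 ± 52.4 on the arrays labelled Bmal1-/- (SD, n = 3). Their log2 fold changes were 0.0017 (SE 0.08) and -0.01 (SE 0.07). The suffix _x_at of all 4 marks probe sets with probes that also match other transcripts, and aldolase A has processed pseudogenes, so the direction of Aldoa itself is uncertain. Aldoa is also the only one of the 10 genes within 20 Mb of Arntl on the same chromosome. In that stretch 10.7% of 289 tested single-gene probe sets changed, against 5.22% of 12271 elsewhere, and the part of this in the Aldoa result was not tested.

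Pgk1, which makes the first ATP of the pathway, had 3 probe sets and no call. The brightest, 1438640_x_at, read 762.5, 739.3 and 783.3 in wild type against 673.1, 637.7 and 780.8 on the arrays labelled Bmal1-/-, giving a log2 change of -0.13 (SE 0.08). Probe set 1417864_at read 737.9, 671.2 and 728.1 against 745.2, 672.9 and 771, a log2 change of 0.03 (SE 0.08). The groups overlapped at both. The dim set 1439435_x_at ranged from 129.3 to 195.6 in wild type and from 125.9 to 207 on the others, with a log2 change of -0.11 (SE 0.18). The value of 1438640_x_at was -0.07 without Bmal1-/- replicate 5 and -0.21 without replicate 6. The limma adjusted p of the 3 lay between 0.414 and 0.86.

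Pkm, the pyruvate kinase gene of most tissues outside liver and red cells, gave overlapping groups. Its probe set 1417308_at read 830.6, 923.6 and 819.1 in wild type against 1011.8, 811.5 and 902 on the arrays labelled Bmal1-/-. Bmal1-/- replicate 4 was the highest array and replicate 5 the lowest. The log2 fold change was 0.08 (SE 0.09, adjusted p = 0.67 in limma), and the splice forms PKM1 and PKM2 cannot be separated with 1 probe set.

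Ldha, the lactate dehydrogenase subunit that dominates in tissues that make lactate, rose. Probe set 1419737_a_at read 241.7, 287 and 290.4 in wild type against 415.5, 374.5 and 395.3 on the arrays labelled Bmal1-/-. All 3 of the latter stood above wild type, with means of 273 ± 27.2 and 395 ± 20.5 (SD, n = 3). The log2 fold change was 0.51 (SE 0.09, adjusted p = 0.00897 in limma), and it stayed past the threshold in all 14 alternative fits (highest adjusted p = 0.0452).

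The first of the 2 annotated Ldha starts, chr7:46845554-46845853 on the plus strand, holds 2 E-boxes, 145 to 140 and 48 to 43 bases before the start. An ACGTG outside the E-boxes lies on the minus strand 34 to 30 bases before the start. CACGTG at 2 or more places occurs in 0.594% of the 32851 promoter windows. That share is per window, and 18 windows were searched here, so it is no test of Ldha. The second Ldha start holds none of the 3 motifs. The window of the E-boxes is shown as the one with most matches among the members.
Ldha start 1: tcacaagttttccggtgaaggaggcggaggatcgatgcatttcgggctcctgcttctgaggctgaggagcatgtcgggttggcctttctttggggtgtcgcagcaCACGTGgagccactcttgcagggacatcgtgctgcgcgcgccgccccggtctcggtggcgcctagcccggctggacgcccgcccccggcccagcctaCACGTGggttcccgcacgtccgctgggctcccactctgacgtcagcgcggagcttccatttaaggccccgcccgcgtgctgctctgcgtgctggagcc

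Ldhb, the subunit that dominates in heart and other tissues that burn lactate, was read by 4 probe sets, of which 1 rose. Probe set 1434499_a_at read 74.5, 69.4 and 55.9 in wild type against 112.3, 117.3 and 102.2 on the arrays labelled Bmal1-/-. The groups did not overlap, and the log2 fold change was 0.62 (SE 0.13, adjusted p = 0.0166 in limma). The call was lost without wild type replicate 3 (adjusted p = 0.0644) or Bmal1-/- replicate 4 (0.0573) or 5 (0.0726).

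The brighter Ldhb probe set 1416183_a_at read 184, 166.9 and 145.5 in wild type against 188.1, 135.3 and 179.4 on the other arrays, with overlap. Its log2 fold change was 0.01 (SE 0.13). Probe sets 1448237_x_at and 1455235_x_at also overlapped, with log2 fold changes of -0.06 (SE 0.13) and 0.05 (SE 0.25). In the last of these Bmal1-/- replicate 6 read 86.9 against 223.9 and 192.6 for the other arrays with that label. The direction of Ldhb thus depends on the probe set.

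On the arrays labelled Bmal1-/- Ldha stood higher relative to the brightest Ldhb probe set by 0.50 on the log2 scale (SE 0.19), with no overlap between genotypes and the smallest possible exact permutation p of 0.1. Against 1448237_x_at and 1455235_x_at it was 0.57 and 0.47, and against 1434499_a_at, the Ldhb probe set that rose, -0.11. The sign was thus above 0 with 3 of the 4 Ldhb probe sets.

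Other genes of sugar metabolism were followed in 6 lists of 69 genes, of which 55 had a probe set for that gene alone and 36 passed the filter on low values. Counting the brightest tested probe set of a gene, 1 rose and 2 fell in limma, against 5.66% of all genes tested, and the median log2 fold change over the 36 was 0.02. Leaving out replicate 1 or 3 of wild type, or replicate 4 of Bmal1-/-, brought the count of 3 down to 1, and leaving out replicate 5 of Bmal1-/- to 0. In these fits the calls over all tested probe sets were 425, 314, 425 and 329, against 752 with all arrays.

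Among the other glycolytic enzymes 5 of 17 were tested, and 0 passed in limma, with 2 at an unadjusted p under 0.05. The brightest tested probe sets of Aldoc, Tpi1 and Pgam1 had log2 fold changes of 0.02, -0.02 and 0.02. The other 2 probe sets of Tpi1 stood at -0.05 and 0.18, the latter higher without overlap (unadjusted p = 0.0234, adjusted p = 0.157 in limma). The neuronal enolase gene Eno2 read 203.5, 201.6 and 207.1 in wild type against 173.1, 139.4 and 178.2 on the arrays labelled Bmal1-/-, giving a log2 change of -0.30 (SE 0.11, adjusted p = 0.128 in limma). The muscle enolase gene Eno3 read 339.9, 293.3 and 251.3 against 157, 221.1 and 229.7, a log2 change of -0.52 (SE 0.14, adjusted p = 0.0555 in limma). Both enolases were lower on every array labelled Bmal1-/-, and neither passed. Over all tested probe sets 13.3% were lower without overlap.

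Gapdh was read only by the array's control probe sets, which were left out of the fit. The 3' set had a wild type mean of 2010 ± 27.5, against 1884 ± 119 on the arrays labelled Bmal1-/-, the middle set 2582 ± 107 and 2667 ± 82.9, and the 5' set 3036 ± 202 and 3050 ± 33.8 (SD, n = 3). The exact two-sided permutation p was 0.1, 0.3 and 0.8 for the 3', middle and 5' sets. The 3' set was lower without overlap, and the other sets overlapped.

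The pyruvate side of the pathway held both falls. In the list of the pyruvate dehydrogenase complex and its kinases, which also holds pyruvate carriers and pyruvate carboxylase, 10 of 13 genes were tested. Of these 2 fell, against 2.66% of all genes tested. The list median was -0.03, with 4 genes above 0. Pcx, pyruvate carboxylase, which feeds pyruvate into oxaloacetate, read 97.9, 79.5 and 94.4 in wild type against 57.2, 49.1 and 62.7 on the arrays labelled Bmal1-/-. It fell without overlap, with a log2 change of -0.56 (SE 0.13, adjusted p = 0.0305 in limma). This was the only 1 of 5 Pcx probe sets that passed the filter on low values. The call was lost without wild type replicate 1 (adjusted p = 0.0969) or 3 (0.103), without Bmal1-/- replicate 4 (0.0745) or 5 (0.118), and with no filter on low values (0.0726).

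Mpc1, a subunit of the mitochondrial pyruvate carrier, read 356, 339.4 and 338.6 in wild type against 286.2, 269.7 and 266 on the other arrays. It fell by 0.32 on the log2 scale (SE 0.08, adjusted p = 0.0464 in limma), and every fit on 5 of the 6 arrays lost the call (adjusted p from 0.0612 to 0.143). The call was also lost with equal array medians (0.0915), when all probe sets were tested (0.067) and in an untrended fit (0.109). Pdhb, a subunit of pyruvate dehydrogenase, stood at 0.21 without overlap (limma adjusted p = 0.102). Pdk4, the kinase that switches the complex off in fasting, had the lowest value of the list at -0.65 (SE 0.31, adjusted p = 0.257 in limma). It read 89.8, 26.1 and 27.2 in wild type against 12.3, 21 and 31.5 on the arrays labelled Bmal1-/-. Only wild type replicate 1 stood above the arrays labelled Bmal1-/-, and the other wild type arrays lay among them.

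Of the pentose phosphate genes, which branch off after hexokinase, 7 of 8 were tested. Only Pgls, the lactonase of that branch, rose, where 3% of all genes tested rose. It read 68.4, 88.5 and 77.3 in wild type against 135.9, 139.5 and 120.5 on the arrays labelled Bmal1-/-, with a log2 change of 0.66 (SE 0.12, adjusted p = 0.00931 in limma). The groups were apart, and the call was lost without Bmal1-/- replicate 5 (adjusted p = 0.0505). Taldo1, Pgd and Tkt, enzymes of the same branch, stood at 0.23, 0.23 and 0.21 without overlap, and none of them passed (limma adjusted p from 0.201 to 0.229). Over all tested probe sets 12.6% were higher without overlap. The values of Pgd and Tkt are those of the brightest of 4 and 2 tested probe sets. The list median was 0.21, with 5 genes above 0. H6pd and Rpia stood below 0 at -0.12 and -0.11, with overlap.

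Of 10 glucose and lactate transporter genes 5 were tested and 0 passed in limma, with 1 at an unadjusted p under 0.05. The smallest p-values were those of Bsg, the chaperone of the lactate carriers, at 0.22 (SE 0.07, adjusted p = 0.101 in limma), and of the lactate carrier gene Slc16a1 at -0.26 (SE 0.13, adjusted p = 0.294). Slc2a1, the basal glucose transporter, had a log2 change of 0.06 (SE 0.14). Bsg passed with equal array medians (adjusted p = 0.0421) and without wild type replicate 2 (0.044). Of 16 glycogen and gluconeogenesis genes 9 were tested and 0 passed in limma, with 1 at an unadjusted p under 0.05, Pygb, the brain glycogen phosphorylase, at 0.33 (SE 0.09, adjusted p = 0.0543 in limma). Pygb passed with equal array medians (adjusted p = 0.0288), with the top 40% of probe sets tested (0.0495) and without wild type replicate 2 (0.0321). Ugp2, which makes UDP-glucose, followed at 0.17 (SE 0.08, adjusted p = 0.24). In the list of PFK2 bifunctional enzymes and Tigar, which set the level of a phosphofructokinase activator, 2 of 5 genes were on the array and 0 passed the filter.

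**Figure D5:**
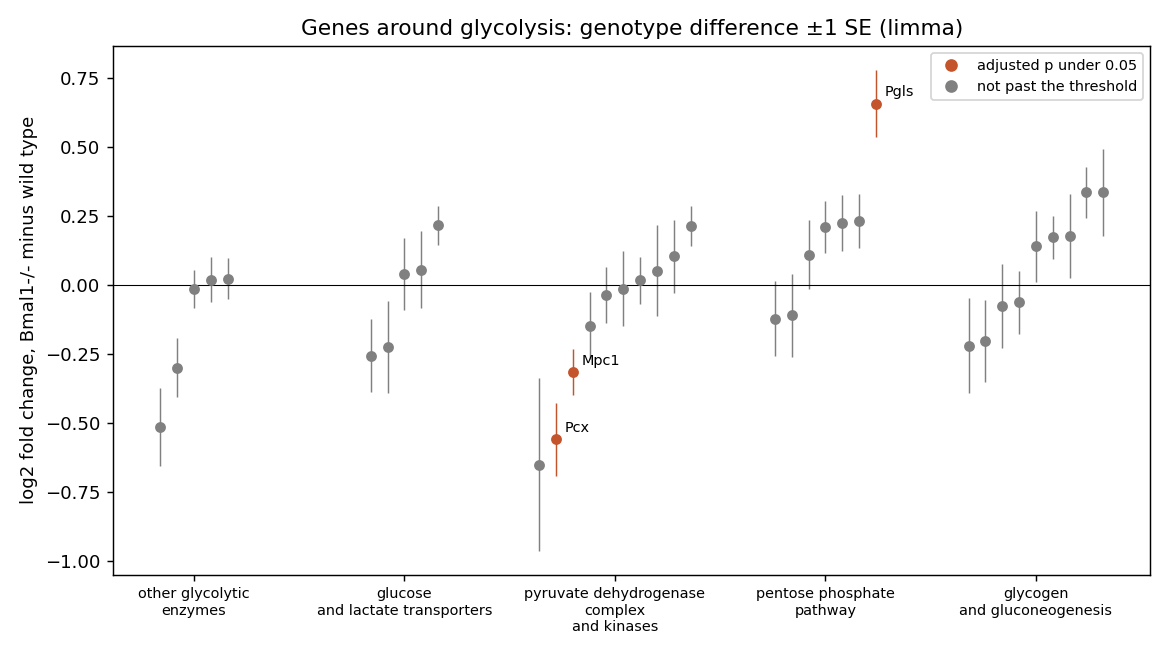
Log2 fold change, Bmal1-/- minus wild type, with bars of 1 SE from limma, for the 36 tested genes of 5 lists around glycolysis, 1 point per gene. The named, coloured points are the genes past an adjusted p of 0.05, with Pgls at 0.66, Mpc1 at -0.32 and Pcx at -0.56.

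Markers of other cells that a gland can hold were read beside these results. Macrophage markers had a summed intensity of 539 to 608 in wild type and 376 to 459 on the arrays labelled Bmal1-/- (9 of 10 on the array, 1 of 7 tested fell). Endothelial markers summed to 555 to 650 and 634 to 738 (8 of 8 on the array, 1 of 7 tested rose). Markers of neurons and the posterior lobe summed to 367 to 524 and 375 to 411 (10 of 11 on the array, 1 of 5 tested rose). The one that rose was the myelin gene Mbp at 0.52, and the other 4 were below 0, with Oxt at -0.57 and Nefm at -0.51 lower without overlap (adjusted p = 0.0565 and 0.0684 in limma), Nefl at -0.24 and Slc17a6 at -0.04. Erythroid markers summed to 70 to 145 and 72.9 to 119 (3 of 8 on the array, 0 of 1 tested passed). The macrophage sums, like those of the hormone genes, did not overlap between genotypes, and the sums of the endothelial, neuronal, erythroid and muscle markers did. The part of these cells in the glycolysis results was not tested.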

How the data were processed

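Biotin-labelled cRNA from 1 ug of total RNA per pool was hybridised to an Affymetrix mouse array, per the labels. The deposited intensity values come from MAS5, per the submitters' processing notes, which do not name a version, and detection calls were not used here. The mean intensity after trimming 2% at each end was 100.0 on all 6 arrays. The medians, taken without control probe sets, were 34, 33.5 and 34.3 in wild type. They were 31.8, 32.2 and 31.7 on the arrays labelled Bmal1-/-, lower without overlap. With equal array medians the median log2 fold change over all tested probe sets was 0.05, against -0.01. The 64 control probe sets were left out of the tests. In the platform annotation 20380 of the remaining probe sets name a single gene, 691 name more than 1, and 1555 are unnamed here.

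Values were transformed as log2(intensity + 16), which understates changes of dim probe sets. The brightest 60% of probe sets by mean over all arrays, 13576, were tested with limma 3.58.1 under R 4.3.3 by a two-sided lmFit and trended eBayes fit, and p-values were adjusted by Benjamini-Hochberg across all of these at a threshold of 0.05. The labels number the arrays differently in each genotype and name no batch. Isozyme differences were tested by exact permutation of the 6 arrays, and each pool counts as 1 replicate.

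The members and lists were chosen with earlier results of these data known. Named were all member probe sets, Gapdh, and from each other list up to 6 genes past the threshold or else the 2 with the smallest p. A few others are named for contrast, chosen after their values were seen. The fit was tested on simulated data with the mean of each probe set taken from these 6 arrays, of which 13576 passed the filter. Noise was normal and independent, with an SD set by brightness alone. There 93% of changes of 1 and 66.1% of changes of 0.5 on the log2 scale were recovered, with 4.19% false calls. No simulated probe set had a spread of its own and no array an effect, so these rates need not hold for the real arrays. The settings tried in turn were a pseudocount of 1 or 64, arrays brought to equal medians or quantile normalized, the top 40% or every probe set tested, eBayes untrended or robust, and 1 array left out.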

Additional observations from a re-analysis of the deposited data

How the results depend on the processing

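No paired analysis was possible because the genotypes share no replicate numbers. Leaving out 1 array gave 3 to 7 member probe sets called and 0 to 4 pathway list genes called. Over all tested probe sets the same fits called 314 to 950, against 752 with all arrays. Of the called members 5 of 6 rose without wild type replicate 1, and Hk2 fell. Without wild type replicate 2, 6 of 7 rose, and Aldoa 1433604_x_at fell. The count of list genes was 5 with equal array medians and 1 with no filter on low values. Those settings called 897 of 13576 and 330 of 22626 probe sets in all. Without the variance trend 4 member probe sets were called (407 over all tested probe sets), and each other setting with all arrays gave 5. Pfkp minus Pfkl was 0.76 with a pseudocount of 64 and 0.69 after averaging each gene's probe sets. Pfkp minus Pfkm was 0.62 with a pseudocount of 1, 0.48 with 64 and 0.43 with probe sets averaged. The other 9 pairings of probe sets, chosen after seeing the data, gave 1.07 for Hk1 minus Hk2, 0.79, 0.59 and 0.48 for Pfkp minus Pfkl, 0.27 for Pfkp minus Pfkm, -0.21 for Pfkl minus Pfkm and 0.57, 0.47 and -0.11 for Ldha minus Ldhb, the 1 pair whose sign turned. The cause was not tested.

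Of 30 single probe sets followed through 14 alternatives each, 367 of 420 values kept direction and side of the threshold, 23 lost and 9 gained a call, and 21 changed sign, all from probe sets not called. Leaving out 1 array gave log2 fold changes from -0.094 to 0.070 for Pfkl 1450269_a_at, -0.059 to 0.048 for Aldoa 1416921_x_at, -0.046 to 0.027 for Aldoa 1434799_x_at, -0.0086 to 0.089 for Pgk1 1417864_at, -0.33 to 0.0042 for Pgk1 1439435_x_at and -0.0016 to 0.15 for Pkm. For Ldhb it gave -0.072 to 0.14 (1416183_a_at), -0.16 to 0.051 (1448237_x_at) and -0.19 to 0.42 (1455235_x_at). Pfkl 1450269_a_at was -0.0097 after quantile normalization, and with equal array medians Aldoa 1434799_x_at was 0.048 and Ldhb 1448237_x_at 0.0012. The dimmest member lay at the brightness percentile 34.9 of the tested probe sets, and with no detection calls used, signal over background was not tested.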
